A study of Mus musculus with 12 samples.

Results

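Gene expression in the lungs of old mice was compared with that of young adult mice, in 6 of the 12 libraries of a study of lung ageing. All animals were male wild-type C57Bl/6J mice, an inbred laboratory strain, and no allele or agent was added at any age. The old group held 3 mice of 24 months and the young group 3 mice of 3 months, each mouse giving 1 library of poly(A) RNA from minced lung, and the 3 mice each of 6 and 12 months served for the estimate of spread and as levels between the extremes. Of 35275 genes in the read table, 16042 held enough reads to be tested, and all of them are members of the comparison. Levels of single genes are CPM, gene reads scaled to library size with TMM factors, given per mouse in the order of mouse number. Changes are log2 fold changes of 24 against 3 months ± SE. Summed levels of gene lists are scaled to all gene reads of a library, without TMM factors. TMM factors lower the CPM of every 3-month mouse and raise that of every 24-month mouse. A fall of a summed level is therefore larger, and a rise smaller, than on the scale of single genes. A level written as a single value with ± is the mean and SD of 3 mice. A gene was called when its adjusted p was under 0.05 in edgeR's quasi-likelihood test. Because the 24-month libraries carried a strong trend on GC content and gene length, each change is also given with an offset that removes this trend from each library, and below a gene is said to have risen or fallen only where it was called in that direction both without and with the offset. Levels in CPM and summed levels of lists are without the offset and carry the trend, and a sum is led by its most abundant members. P values measure the spread between the mice sampled, and in whole lung fewer cells of a type and less RNA per cell cannot be told apart.

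The lung exchanges gas across a thin barrier of flat type 1 epithelial cells and capillary endothelium, while cuboidal type 2 cells secrete surfactant and renew the epithelium. Fibroblasts and smooth muscle lay down and tension the collagen and elastin scaffold, and resident macrophages, monocytes and lymphocytes guard the airspaces. With age the mouse lung is known for gathering lymphocytes and plasma cells, for a stiffer matrix and for slower repair. GC content, the share of guanine and cytosine bases in a transcript, is a property of the gene and does not change with age, so a change that follows it across the whole transcriptome touches every pathway at once.

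The ends of the GC range are shown by 4 abundant protein coding genes, of which the middle 90 coding bases are shown with G and C in capitals (GENCODE M21, build mm10, 5′ to 3′ on the coding strand). The first pair encodes subunits of respiratory complex I on the mitochondrial genome, and the second pair encodes transcription factors, JunD of the AP-1 family and C/EBP beta.
mt-Nd6: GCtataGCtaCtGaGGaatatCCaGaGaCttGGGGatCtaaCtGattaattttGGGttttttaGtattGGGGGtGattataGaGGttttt
mt-Nd4: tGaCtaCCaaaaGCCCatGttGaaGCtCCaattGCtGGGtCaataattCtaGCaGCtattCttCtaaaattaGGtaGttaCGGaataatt
Jund: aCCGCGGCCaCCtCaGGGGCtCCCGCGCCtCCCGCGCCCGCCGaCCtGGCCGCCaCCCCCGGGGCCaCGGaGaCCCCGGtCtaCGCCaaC
Cebpb: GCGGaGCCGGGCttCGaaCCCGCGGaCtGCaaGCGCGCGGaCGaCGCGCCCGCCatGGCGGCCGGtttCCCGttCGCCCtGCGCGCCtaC
The transcripts hold 34.1% GC in mt-Nd6 (chrMT:13552-14070, minus strand), 35.6% in mt-Nd4 (chrMT:10167-11544, plus strand), 67.2% in Jund (chr8:70697739-70700616, plus strand) and 67.2% in Cebpb (chr2:167688915-167690418, plus strand). mt-Nd4 had 1657, 1487 and 1626 CPM at 3 months and 754, 900.0 and 631 CPM at 24 months, so that every old mouse lay below every young one (log2 fold change -1.06 ± 0.22, adjusted p = 0.00037). Jund had 173, 133 and 123 CPM at 3 months and 577, 626 and 1921 CPM at 24 months, and every old mouse lay above every young one, mouse 3 the farthest (log2 fold change 2.86 ± 0.38, adjusted p = 5.2e-06). With the offset mt-Nd4 had 0.90 ± 0.13, adjusted p = 5.1e-05 and Jund 0.17 ± 0.14, adjusted p = 0.30, so the call of mt-Nd4 turned and that of Jund ended. Cebpb went from 2.04 without to -0.39 ± 0.16, adjusted p = 0.044 with the offset, a call lost when any mouse but 24-month mouse 2 was left out, and mt-Nd6, whose old and young mice overlapped, from -0.16 (adjusted p = 0.50) to 2.22 ± 0.28, adjusted p = 1.5e-05.

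A pair of genes that moved against the trend is shown in the same way. Igj encodes the J chain that links IgM and IgA units, and it is poor in GC but higher at 24 months. Tox3 encodes an HMG-box nuclear protein, and it is rich in GC but lower at 24 months.
Igj: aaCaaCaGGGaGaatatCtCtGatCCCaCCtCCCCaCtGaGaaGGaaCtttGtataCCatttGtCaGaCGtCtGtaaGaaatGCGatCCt
Tox3: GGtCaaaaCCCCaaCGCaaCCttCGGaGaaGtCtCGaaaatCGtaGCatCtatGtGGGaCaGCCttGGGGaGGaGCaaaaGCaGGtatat
Their transcripts hold 38.8% GC in Igj (chr5:88520512-88527891, minus strand) and 57.1% in Tox3 (chr8:90247040-90348343, minus strand). Igj had 8.44, 6.25 and 11.8 CPM at 3 months and 88.3, 92.1 and 160.0 CPM at 24 months and Tox3 8.69, 12.8 and 9.63 CPM at 3 months and 0.823, 1.53 and 0.351 CPM at 24 months. Both were picked from genes without overlap between the ages. The change of Igj was 3.68 without and 5.67 with the offset, and that of Tox3 -3.43 and -5.07, so that the offset enlarged both.

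Across all genes the change at 24 months followed GC content step by step. In the decile of genes with the lowest GC content (median 41.3%) 3 of 1595 genes were called higher and 1503 lower, with a median log2 fold change of -2.63. In the decile with the highest GC content (median 59.7%) 1461 of 1595 were called higher and 21 lower, with a median of 2.20. The sign turned in the sixth decile, at a median GC content of 51.7%. By gene length the medians ran from 0.31 in the shortest decile to -1.998 in the longest. A joint smooth on both properties gave 68.0% of the variance of the fold changes, and 0.0713% once the offset was in place, and within the GC deciles the medians then ran from -0.10 to 0.19. The offset takes out a smooth of the same form, so the values after it are small by construction and do not test it. Over 14323 genes with an annotated coding sequence and 3′ UTR, Spearman's rho of the fold change was 0.82 with the GC content of the transcripts, 0.74 with that of the coding sequence, 0.77 with that of the 3′ UTR, -0.29 with length and 0.34 with level (mean CPM of the 6 mice, old and young together), all as a description, since genes share the libraries and these properties go together. The trend was steepest in 24-month mouse 3, whose lowest and highest GC deciles lay -3.07 and 2.81 log2 units from the 3-month mean, against -2.40 and 1.59 in mouse 1 and -2.29 and 1.75 in mouse 2. A smaller tilt of the same sign was present in 12-month mice 1 (-0.69 and 0.48) and 2 (-0.82 and 0.50) and, less, in 6-month mouse 2 (-0.23 and 0.23). In 12-month mouse 3 the highest decile lay at 0.44 and the lowest at 0.0830.

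**Figure D1:**
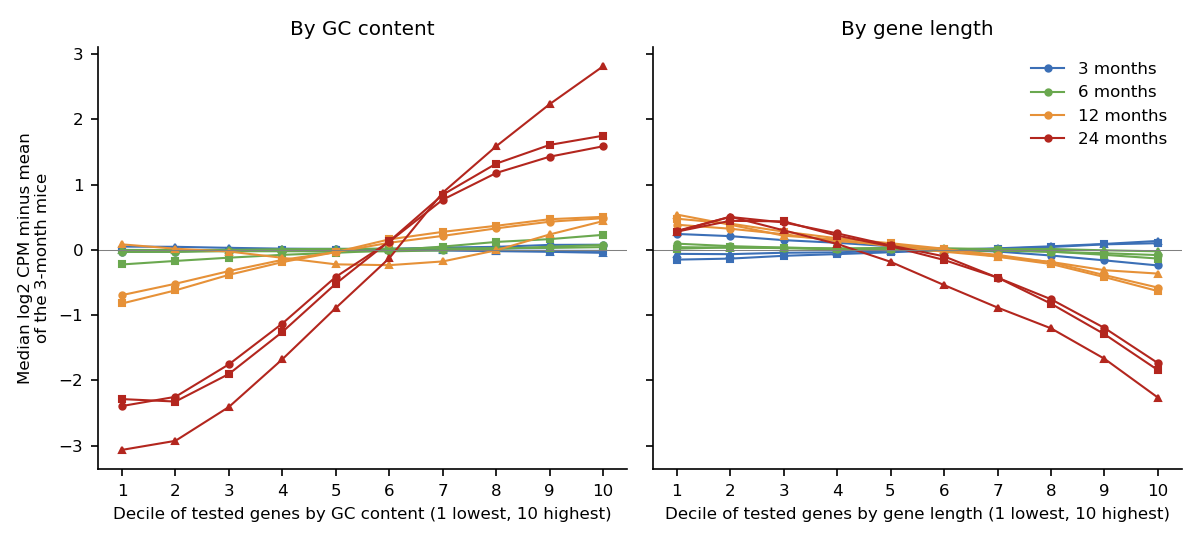
Median log2 CPM minus the mean of the 3-month mice (vertical axis, log2 units) for deciles of the tested genes ordered by GC content (left) or gene length (right). Each line is 1 mouse, coloured by age, and the 24-month lines run from -3.07 to 2.81 in mouse 3, the steepest.

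At the level of whole libraries the 24-month mice had fewer genes with a read (17533 to 18513, against 20175 to 20625 at 3 months) and a smaller share of mitochondrially encoded reads (0.443 to 0.629%, against 1.65 to 1.95%). Mean gene GC content, each gene counting by its number of reads, was 54.5, 54.7 and 56.0% at 24 months and 50.9 to 51.1% at 3 months. None of the 3 measures overlapped between the ages, and each had an exact two-sided permutation p of 0.1, the smallest that 3 against 3 mice allow. Libraries held 14720869 to 17950382 gene reads at 24 months and 16528628 to 20899234 at 3 months (exact permutation p = 0.2). The 24-month mice also differed more among themselves, with a median SD per gene of 0.428 log2 CPM against 0.189 at 3 months, and 0.312 against 0.141 after the offset. Age and any unrecorded difference in RNA quality, preparation or sequencing run cannot be told apart in these libraries.

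Of the 16042 genes, 6128 (38.2%) were called higher and 7149 (44.6%) lower at 24 months, 82.8% in all, and in 84.4% the 3 old and 3 young mice did not overlap in CPM (24 months above in 38.6% and below in 45.8%). With the offset 5171 (32.2%) were called higher and 4135 (25.8%) lower, 58% in all. Called in the same direction in both fits were 3349 genes (20.9%) higher and 2991 genes (18.6%) lower, together 39.5%, and 1464 genes (9.13%) changed direction between the fits. Any list of genes is read against these shares below. Of the 6340 genes called in both fits, 5088 (80.3%) were also called in that direction with GC content taken from the longest transcript in place of the mean over transcripts, and 109 were then called the other way, so the call of some genes changed with the GC value they are given. The median fold change of all tested genes was -0.29 with TMM scaling, -0.17 with RLE size factors and 0.06 with the offset, and changes are relative to these medians. Noncoding classes rose less often than all genes and fell about as often: of 386 lincRNA genes 25 rose and 76 fell (6.48% and 19.7%), of 231 processed transcripts 17 rose and 51 fell, and of 263 pseudogenes 24 rose and 56 fell. Genes annotated IG_LV_gene, among them immunoglobulin heavy and light chain V segments, lay on the higher side, with 67 of 139 risen and none fallen. The quintile of genes with the highest level (over 72.7 CPM) had a median of 1.49 without and 0.40 with the offset, and the lowest quintile -0.99 and -0.26, so a relation to level remained after the offset. Level is the mean CPM of the 6 mice, old and young together, so a gene that rises is moved towards a higher quintile by its own rise. The relation is in part built in by this, and how much was not tested. In the highest quintile 45.9% of genes rose and 9.69% fell, and in the lowest 6.58% rose and 16.6% fell. Lists of abundant genes are therefore also to be read against the highest quintile.

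**Figure D2:**
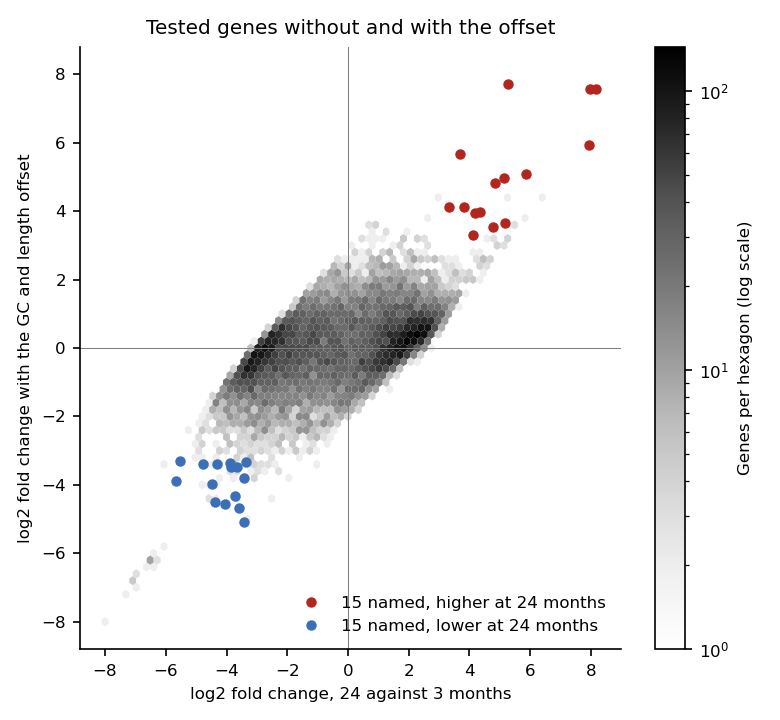
Log2 fold change of 24 against 3 months without (horizontal axis) and with (vertical axis) the GC and length offset for the tested genes, drawn as hexagons shaded by the number of genes on a log scale and held within 8 units each way. Points are the 15 named genes on each side, which lie in the quadrants where both fits have the same sign, as do 3349 genes higher and 2991 lower.

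The 15 genes with the largest rises in both fits were mostly genes of lymphocytes and plasma cells. They were taken only from genes whose old and young mice did not overlap, as in 84.4% of all tested genes. The lack of overlap in them was thus a condition of choice. They held 7 immunoglobulin genes of the constant regions and the J chain, together with Ccl5, Cst7 and Cd3e of T and cytotoxic cells, Cd5l and Dnase1l3 of macrophages and dendritic cells, and Ecel1, H19 and Atp2a1. Igha (chr12:113258768-113260236), the constant region of IgA, the antibody secreted at mucosal surfaces, had 32.7, 22.7 and 21.4 CPM at 3 months and 255, 616 and 453 CPM at 24 months. Its change was log2 fold change 4.11 ± 0.37, adjusted p = 1.6e-07, and 3.30 ± 0.31 with the offset. Ighg2b (chr12:113306389-113307933), an IgG constant region, had 4.88, 1.76 and 14.73 CPM at 3 months and 273, 144 and 197 CPM at 24 months (log2 fold change 4.86 ± 0.91, adjusted p = 0.00027). In both genes the lowest old mouse lay many times above the highest young mouse. The other IgG genes were less even among the old mice, as Ighg3 had 28.6, 20.9 and 290.3 CPM and Ighg1 22.96, 30.4 and 283 CPM at 24 months, highest in mouse 3. Ighg2c had 185, 244 and 212 CPM. The IgG genes are close paralogs, and the assignment of reads that fit several of them is not stated by the sources used here. Ccl5 (chr11:83525778-83530518), a chemokine of activated T and NK cells, had 16.96, 17.5 and 14.6 CPM at 3 months and 163, 314 and 422 CPM at 24 months, and rose by 4.19 ± 0.34 (3.96 ± 0.30, adjusted p = 2.0e-07 with the offset). Cst7, the cystatin F that restrains cathepsins of cytotoxic cells, had 0.744, 0.572 and 0.684 CPM at 3 months and 8.15, 9.74 and 10.4 CPM at 24 months, an even rise in all 3 old mice. Cd3e (chr9:44998743-45009590), a signalling chain beside the T cell receptor, had 4.84, 5.10 and 4.05 CPM at 3 months and 30.3, 40.1 and 72.4 CPM at 24 months.

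Dnase1l3 (chr14:7964533-7994573), a secreted nuclease that digests chromatin from dying cells, had 0.744, 0.748 and 1.21 CPM at 3 months and 14.3, 24.9 and 65.7 CPM at 24 months (log2 fold change 5.28 ± 0.54, adjusted p = 4.3e-07). Cd5l (chr3:87357881-87371074), a macrophage protein that binds IgM, had 0.620, 1.10 and 2.10 CPM at 3 months and 40.002, 85.7 and 5.86 CPM at 24 months, so that old mouse 3 lay close to the young mice and old mouse 2 farthest above them. Ecel1, an endopeptidase of the neprilysin family, had 1 read in the 3 young libraries together and 2.06, 2.40 and 12.1 CPM at 24 months. H19, an imprinted noncoding RNA of fetal tissues and muscle, had 0.869, 0.528 and 0.473 CPM at 3 months and 2.39, 2.18 and 64.9 CPM at 24 months. Atp2a1, the calcium pump of fast skeletal muscle, had 1.03, 1.54 and 0.789 CPM at 3 months and 10.2, 4.44 and 79.5 CPM at 24 months. The changes of both were smaller when 24-month mouse 3 was left out: H19 then had 1.85 without and 0.71 (adjusted p = 0.13) with the offset, and Atp2a1 2.69 and 1.69. Without 3-month mouse 3 the offset value of H19 was 3.54 (adjusted p = 0.055).

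The 15 genes with the largest falls in both fits shared no cell type, and several encode regulators of transcription or scaffold proteins. Like the genes with the largest rises, they were taken only from genes without overlap between the ages. Atxn7 (chr14:14012491-14107296), a subunit of the SAGA coactivator complex, had 44.96, 59.9 and 68.4 CPM at 3 months and 4.36, 2.54 and 1.29 CPM at 24 months (log2 fold change -4.36 ± 0.34, adjusted p = 5.3e-08, and -4.49 ± 0.36, adjusted p = 3.0e-07 with the offset). Plagl1 (chr10:13090691-13131694), an imprinted zinc finger factor that restrains growth, had 34.99, 37.6 and 34.3 CPM at 3 months and 3.70, 1.82 and 3.51 CPM at 24 months (log2 fold change -3.58 ± 0.27, adjusted p = 4.7e-08). Foxn3, a forkhead repressor, had 3.97, 20.3 and 24.46 CPM at 3 months and 1.15, 1.45 and 1.05 CPM at 24 months. In Foxn3 young mouse 1 was well under the other young mice. Slfn5, an interferon-inducible nuclear protein, had 47.1, 86.9 and 84.6 CPM at 3 months and 3.05, 3.71 and 0.820 CPM at 24 months. Csgalnact1, which starts chondroitin sulfate chains, had 24.4, 27.2 and 24.1 CPM at 3 months and 2.47, 2.47 and 0.820 CPM at 24 months. Sntb1, a syntrophin that anchors the dystrophin complex, had 11.5, 24.3 and 25.1 CPM at 3 months and 0.988, 1.74 and 0.820 CPM at 24 months (-4.05 without and -4.55 with the offset). Mir22hg (chr11:75461539-75466676), the host transcript of the microRNA miR-22, had 34.5, 29.6 and 28.1 CPM at 3 months and 3.62, 3.20 and 2.11 CPM at 24 months, with the smallest SE of the 15 in both fits (log2 fold change -3.35 ± 0.24, adjusted p = 3.8e-08, and -3.32 ± 0.18, adjusted p = 3.3e-08 with the offset).

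Zfp366, a zinc finger repressor of dendritic cells (-4.48 without and -3.98 with the offset), Tshz1, a teashirt homeobox factor (-3.43 without and -3.79 with the offset), Lmln, a metalloprotease of the leishmanolysin family (-4.33 without and -3.38 with the offset), and Ccdc170, a coiled-coil protein (-3.88 without and -3.37 with the offset), were also among the largest falls. Clec12b, an inhibitory lectin receptor, had 7.65, 6.16 and 4.73 CPM at 3 months and 0.0823, 0.218 and 0 CPM at 24 months. Cep85l, a centrosomal protein, had 2.03, 7.78 and 10.8 CPM at 3 months and 0, 0.364 and 0 CPM at 24 months. The 24-month reads of Cep85l all came from mouse 2, and its fitted change of -5.52 was -10.00 without that mouse, so its size is not measured here. The remaining member, RP23-402K24.5, is named only by its clone and had 6.33, 6.95 and 7.89 CPM at 3 months and 0.823, 0.436 and 0.117 CPM at 24 months. In all, 43 tested genes had reads in all 3 young mice and none in the 3 old mice, and 1 gene the reverse.

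**Figure D3:**
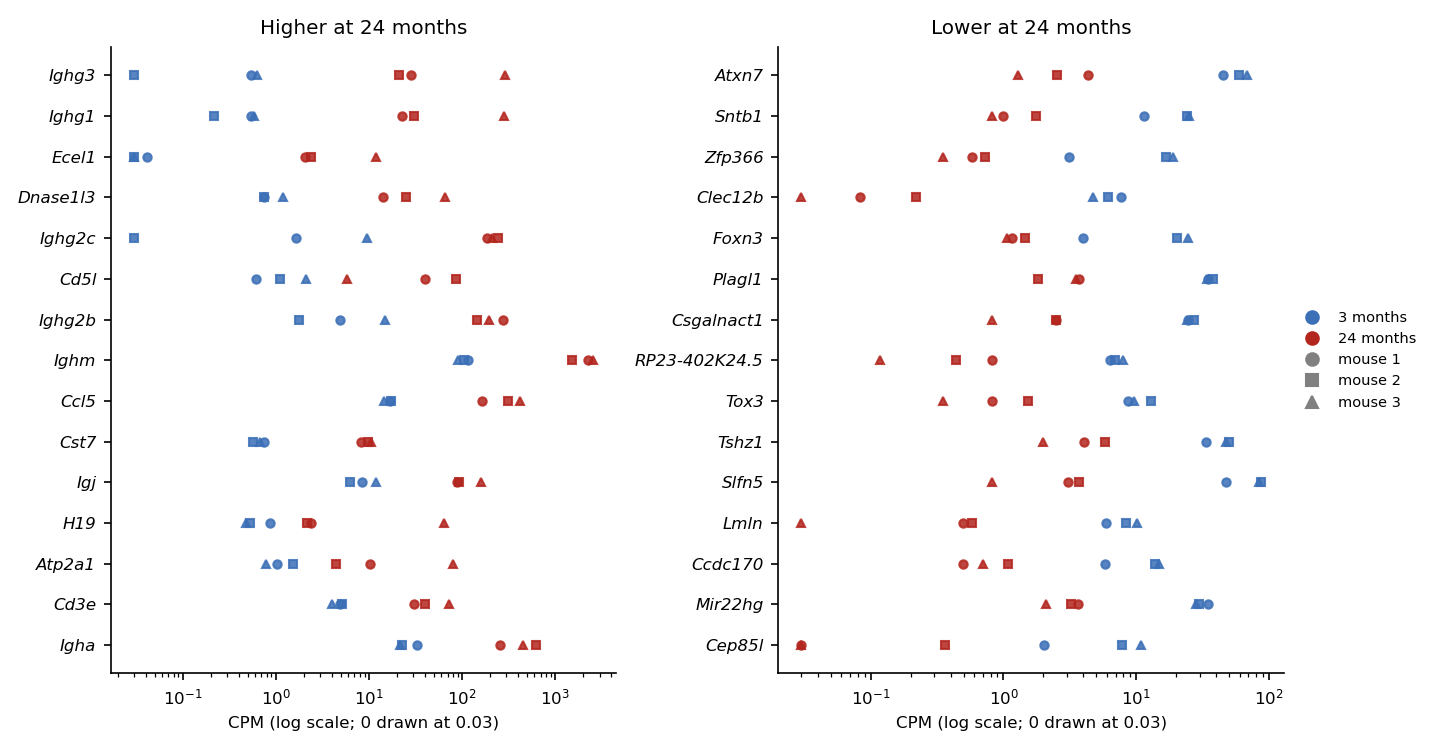
CPM per mouse (horizontal axis, log scale, 0 drawn at 0.03) of the 15 genes with the largest rises (left) and falls (right) in both fits. Blue marks are 3-month and red marks 24-month mice, and the shape gives the mouse number. Only genes without overlap between the ages were chosen, such as Ighm with 89.5 to 115 CPM at 3 months and 1504 to 2580.2 CPM at 24 months.

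In the alveolar epithelium genes of flat type 1 cells fell more often than they rose: of 20 tested, 3 rose and 9 fell (15% and 45%, against 20.9% and 18.6% of all genes), with a median of -1.21 without and -0.33 with the offset. With the offset alone 7 were called higher and 9 lower. Cav1 (chr6:17306335-17341452), the coat protein of caveolae, had 1204, 1094 and 1153 CPM at 3 months and 195, 173 and 92.5 CPM at 24 months (log2 fold change -2.91 ± 0.31, adjusted p = 5.9e-07, and -2.63 ± 0.28, adjusted p = 3.5e-06 with the offset). Vegfa (chr17:46016993-46032377), the growth factor through which the alveolar epithelium maintains its capillaries, had 972, 1018 and 965 CPM at 3 months and 355, 348 and 237 CPM at 24 months (log2 fold change -1.65 ± 0.25, adjusted p = 2.0e-05), and -3.08 with the offset (its GC content is 55.6%). Old and young mice were far apart in both genes. Lmo7, a junction adaptor (-4.12 without and -2.07 with the offset), and Timp3, an inhibitor of metalloproteases (-2.53 without and -2.03 with the offset), fell as well. Ager, the receptor that marks type 1 cells, had 2765, 2051 and 2446 CPM at 3 months and 7284, 7173 and 9680.3 CPM at 24 months, higher in every old mouse (log2 fold change 1.73 ± 0.20, adjusted p = 1.3e-06), but -0.15 ± 0.15, adjusted p = 0.41 with the offset. Cav1, Vegfa and Timp3 are also made by endothelial and stromal cells, and the summed level of the list was 14773 to 15846 CPM at 3 months and 10564 to 14907 CPM at 24 months, with no marker at 0.

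Type 2 cell genes were divided: of 19, 6 rose and 4 fell, with a median of 0.53 without and -0.01 with the offset. Sftpc, surfactant protein C, had 18457, 13537 and 16609 CPM at 3 months and 23564, 22068 and 26460.5 CPM at 24 months (log2 fold change 0.57 ± 0.18, adjusted p = 0.0078), and -0.17 ± 0.12, adjusted p = 0.25 with the offset, and its call without the offset was lost without 3-month mouse 2 (0.24, adjusted p = 0.26) or 3 (0.36, adjusted p = 0.13). Etv5, a transcription factor that keeps the type 2 state, rose from 190.2 ± 22.8 to 502 ± 122 CPM (SD, n = 3, 1.40 without and 0.74 with the offset). Lyz1, a lysozyme of the distal epithelium, had 583, 457 and 508 CPM at 3 months and 78.4, 81.9 and 91.1 CPM at 24 months and fell by 2.62 on the log2 scale (-1.63 with the offset). Egfl6, a secreted EGF-domain protein, fell from 74.8 ± 0.704 to 6.396 ± 1.38 CPM (-3.54 without and -1.69 with the offset). In Lyz1 the young mice differed among themselves more than in Egfl6, and in both genes the fall was several times their spread.

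Airway secretory genes also split, 5 rose and 5 fell of 21 (medians 0.02 without and 0.00 with the offset). Scgb1a1, the secretoglobin of club cells, had 31094, 21320.2 and 27243 CPM at 3 months and 39485, 29983 and 11211 CPM at 24 months, so that old mice lay on both sides of the young ones (log2 fold change 0.02 ± 0.32, adjusted p = 0.96). Bpifa1, an antimicrobial protein of the airway surface, rose from 345 ± 37.7 to 1132 ± 145 CPM (1.72 without and 1.45 with the offset). Ltf, lactoferrin, rose from 116 ± 3.47 to 393 ± 70.4 CPM (1.76 without and 2.06 with the offset). Pigr, the receptor that carries IgA and IgM across epithelium, fell, with 90.3, 86.4 and 119.5 CPM at 3 months and 32.7, 24.1 and 12.4 CPM at 24 months (log2 fold change -2.09 ± 0.28, adjusted p = 4.7e-06, and -1.64 with the offset), in the same lungs in which Igha and Igj rose. Among 28 genes of motile cilia 4 rose and 8 fell (medians -0.65 without and -0.25 with the offset). Foxj1, the master regulator of ciliated cells, is rich in GC (61.4%) and had 2.23 without but 0.12 ± 0.17, adjusted p = 0.54 with the offset. Rsph4a, a radial spoke head protein (-4.33 without and -1.66 with the offset), and Ccdc39 and Ccdc40, rulers of ciliary dynein spacing (-3.92 and -1.30 without, -1.27 and -2.07 with the offset), fell. Wdr96, a WD repeat protein of cilia, rose, with 89.2, 93.7 and 98.8 CPM at 3 months and 194, 237 and 568 CPM at 24 months (1.83 without and 4.53 with the offset, or 1.20 and 3.41 when old mouse 3, the highest, was left out). The summed level of the cilia list was 1262 to 1430.1 CPM at 3 months and higher, at 1784 to 1854 CPM, at 24 months, without overlap. This sum is without the offset and carries the GC trend.

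Endothelial genes moved in both directions, 8 rose and 9 fell of 31, so the list as a whole stayed near the background shares (medians -0.79 without and 0.07 with the offset). Vwf (chr6:125546774-125686679), the clotting factor carrier stored in endothelium and platelets, had 443, 627 and 651 CPM at 3 months and 2988, 5749 and 8785 CPM at 24 months. Its rise of 3.35 ± 0.34 (adjusted p = 3.9e-07) was nearly the same with the offset (3.29 ± 0.29). Erg (chr16:95359169-95586593), the ETS factor that maintains endothelial identity, had 96.2, 93.1 and 97.3 CPM at 3 months and 14.1, 11.997 and 6.91 CPM at 24 months and fell by 3.11 on the log2 scale (-3.71 with the offset). Lyve1, a hyaluronan receptor of lymphatic vessels and some macrophages, fell from 323 ± 47.9 to 38.1 ± 15.8 CPM (-3.08 without and -2.12 with the offset). For Vwf and Erg the old mice lay far from the young ones in opposite directions. Pecam1, the junction protein CD31, had 773, 731 and 724 CPM at 3 months and 589, 458 and 239 CPM at 24 months (log2 fold change -0.79 ± 0.26, adjusted p = 0.0100, -0.51 without 24-month mouse 3), and -0.01 with the offset, or -0.67 with GC content from the longest transcript. Platelet genes, which share Vwf as a product of megakaryocytes, summed to 357 to 598 CPM at 3 months and 663 to 1619 CPM at 24 months, with 2 of 16 risen and none fallen, and their part in the rise of Vwf was not tested. Of 26 genes of the VEGF and angiopoietin pathways, Vegfa among them, 5 rose and 5 fell.

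Smooth muscle genes were divided within the contractile apparatus, 7 rose and 6 fell of 20 (medians 1.34 without and 0.19 with the offset). Acta2, smooth muscle actin, had 204, 127 and 103 CPM at 3 months and 427, 372 and 445 CPM at 24 months (log2 fold change 1.52 ± 0.24, adjusted p = 3.0e-05, 1.90 with the offset). Des, the intermediate filament desmin, had 152, 114 and 92.7 CPM at 3 months and 521, 499 and 1284 CPM at 24 months. Myh11, the smooth muscle myosin heavy chain, had 142, 179 and 135 CPM at 3 months and 37.9, 33.7 and 19.3 CPM at 24 months (log2 fold change -2.32 ± 0.25, adjusted p = 6.0e-07, -2.14 with the offset). Mylk, the kinase that activates it, fell from 309 ± 40.9 to 89.8 ± 20.4 CPM. Thus actin and desmin were higher and myosin and its kinase lower in every old mouse. Desmin is shared with skeletal and heart muscle, whose marker genes are given below. Fibroblast identity genes fell more often than they rose: of 22, 1 rose and 8 fell, and the median was -1.43 without and -0.47 with the offset, the lowest with the offset among the lists described. Pdgfra (chr5:75152291-75198204), the growth factor receptor that marks alveolar fibroblasts, had 227, 267 and 243 CPM at 3 months and 37.2, 27.7 and 15.2 CPM at 24 months (log2 fold change -3.20 ± 0.28, adjusted p = 1.3e-07, -2.16 with the offset). Limch1, an activator of nonmuscle myosin, fell from 795 ± 124 to 99.6 ± 27.99 CPM. Npnt, an integrin ligand of the alveolar basement membrane, fell from 677 ± 84.8 to 149 ± 37.5 CPM. Macf1, a linker of actin and microtubules, fell from 672 ± 95.3 to 77.3 ± 33.2 CPM (-3.12 without and -1.16 with the offset). The summed level of the list was 6492 to 6993 CPM at 3 months and 2516 to 4209 CPM at 24 months, without overlap on the scale of all gene reads.

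Of 23 genes of the basement membrane, the matrix sheet on which epithelium and endothelium rest, 9 rose and 8 fell. Those that fell include chains of laminin and collagen IV: Lama3 had 106, 194 and 241 CPM at 3 months and 18.9, 19.4 and 7.14 CPM at 24 months, Nid1, which links laminin to collagen IV, had 107, 153 and 123 CPM at 3 months and 19.8, 20.3 and 19.3 CPM at 24 months. Col4a3, an alveolar collagen IV chain, fell from 261 ± 87.8 to 19.7 ± 5.05 CPM. Their offset values were -1.86 for Lama3, -1.31 for Nid1, -1.05 for Col4a3 and -1.12 for Lamb1, another laminin chain. Col4a1, the ubiquitous collagen IV chain, had 1.35 without, 0.40 with the offset and -0.51 with GC content from the longest transcript, so its direction is not settled. Of the members that rose, Col18a1, the collagen XVIII chain, had 50.3, 59.99 and 48.5 CPM at 3 months and 221, 253 and 626 CPM at 24 months (2.79 without and 0.63 with the offset, 0.43 with the longest transcript). The list summed to 6730.3 to 9072 CPM at 3 months and 8798 to 12914 CPM at 24 months, with overlap. Of 18 elastic fibre genes 7 rose and 4 fell. Ltbp2, a microfibril protein, had 69.98, 77.4 and 61.3 CPM at 3 months and 307, 346 and 1022 CPM at 24 months (3.004 without and 1.08 with the offset). Emilin2, of the elastin interface, had 14.3, 15.4 and 19.2 CPM at 3 months and 98.2, 169 and 87.1 CPM at 24 months (2.86 without and 1.76 with the offset). Fbn1, fibrillin of the microfibril core, fell, with 75.3, 92.6 and 95.7 CPM at 3 months and 27.4, 23.3 and 11.5 CPM at 24 months (-2.08 without and -1.81 with the offset). Eln, elastin itself, had 1.81 without but 0.12 ± 0.18, adjusted p = 0.59 with the offset. Of 22 fibrillar collagen genes and crosslinking enzymes 7 rose and 4 fell. Lox, which crosslinks collagen and elastin, fell in every old mouse (-3.73 without and -0.85 with the offset). Col1a1, type I collagen, had 1.57 without and 0.96 with the offset, and -0.52 with the longest transcript. Among matrix proteases and inhibitors, Adamts1, which cleaves versican and aggrecan, fell from 98.4 ± 12.4 to 11.2 ± 1.80 CPM (-3.13 without and -2.30 with the offset). Adam15, a membrane disintegrin, rose from 87.7 ± 10.4 to 665 ± 425 CPM (2.92 without and 0.86 with the offset).

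Myeloid genes separated by cell type. Of 26 genes of monocytes and interstitial macrophages 15 rose and 1 fell (medians 1.14 without and 0.92 with the offset), whereas of 22 genes of alveolar macrophages 1 rose and 9 fell (medians -1.17 without and -0.41 with the offset). These are 57.7% and 3.85% of the first list and 4.55% and 40.9% of the second, against 20.9% and 18.6% of all genes. In the quintile with the highest level 45.9% rose and 9.69% fell. Csf1r, the receptor for the macrophage growth factor CSF1, had 116, 135 and 141 CPM at 3 months and 545, 751 and 766 CPM at 24 months (log2 fold change 2.40 ± 0.24, adjusted p = 4.2e-07, 1.59 with the offset). Spn, the sialophorin CD43 of nonclassical monocytes and lymphocytes, had 30.1, 27.8 and 21.8 CPM at 3 months and 150.3, 219 and 232 CPM at 24 months. Cd68, a lysosomal glycoprotein, had 37.02, 32.9 and 36.9 CPM at 3 months and 129.8, 184 and 229.5 CPM at 24 months. All 3 genes were higher in every old mouse by several times the spread. Ly6c2, of classical monocytes, rose from 12.3 ± 1.53 to 47.1 ± 19.3 CPM (1.93 without and 2.48 with the offset). Chil3, a chitinase-like protein secreted by alveolar macrophages, had 567, 485 and 607 CPM at 3 months and 110.2, 88.6 and 127 CPM at 24 months (log2 fold change -2.35 ± 0.27, adjusted p = 1.1e-06, -0.91 with the offset). Siglec5, the sialic acid receptor also called Siglec-F, had 14.1, 13.9 and 12.9 CPM at 3 months and 3.54, 3.05 and 2.23 CPM at 24 months (-2.19 without and -2.31 with the offset). Itgax, the integrin CD11c of alveolar macrophages and dendritic cells, rose instead (1.32 without and 2.26 with the offset). Marco, a scavenger receptor, had 1.28 without and -0.30 ± 0.21, adjusted p = 0.23 with the offset. The alveolar macrophage list summed to 1665 to 1854 CPM at 3 months and 688 to 788 CPM at 24 months. Scaled to all gene reads, the monocyte list summed to 9752 to 10572 CPM at 3 months and 7409.9 to 8840.2 CPM at 24 months. The direction of this sum with TMM factors was not calculated. At 3 months it was led by Lyz2, a lysozyme that type 2 cells also make. At 24 months Ace, another member, lay above Lyz2 (3471, 3894 and 5472 CPM). Lyz2 had 6902, 5797 and 6804 CPM at 3 months and 3286, 3215 and 3377 CPM at 24 months (log2 fold change -0.98 ± 0.18, adjusted p = 0.00014, -0.16 ± 0.14, adjusted p = 0.35 with the offset). Of 20 neutrophil genes 4 rose and 1 fell. S100a8, a calcium-binding alarmin, had 69.4, 57.3 and 37.3 CPM at 3 months and 36.5, 53.1 and 23.4 CPM at 24 months with overlap (log2 fold change -0.53 ± 0.44, adjusted p = 0.27). Mmp9, a gelatinase, rose from 17.95 ± 4.10 to 167 ± 59.9 CPM.

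Chemokine genes that were called in both fits were all higher: of 24 tested, 12 rose and 0 fell, with medians of 0.95 without and 1.64 with the offset. Beside Ccl5, Ccl19, which draws naive T cells and dendritic cells, had 0.910, 0.572 and 0.316 CPM at 3 months and 7.33, 7.198 and 24.1 CPM at 24 months (4.37 without and 2.93 with the offset). Ccl8, a monocyte chemokine, had 1.94, 1.495 and 1.79 CPM at 3 months and 6.996, 5.89 and 7.03 CPM at 24 months (1.92 without and 1.95 with the offset). Cxcl9, an interferon-gamma target that attracts activated T cells, had 0.455, 0.616 and 0.631 CPM at 3 months and 1.48, 4.29 and 2.69 CPM at 24 months (2.32 without and 4.40 with the offset). Ccl20, the ligand of CCR6, had 0.207, 0 and 0.316 CPM at 3 months and 0.988, 0.509 and 1.41 CPM at 24 months. These levels are low in whole lung. No old mouse overlapped a young one in these 4 genes, which were picked among those called in both fits. Of the 24 tested chemokine genes 14 did not overlap between the ages, against 84.4% of all tested genes. Antigen presentation to CD4 T cells showed the same direction, as of 15 MHC class II genes 10 rose and 0 fell (medians 2.02 without and 1.17 with the offset). H2-Aa, a class II alpha chain, had 434, 353 and 333 CPM at 3 months and 709, 747 and 923 CPM at 24 months (log2 fold change 1.09 ± 0.19, adjusted p = 8.6e-05, 1.17 with the offset). Ciita, the transactivator of the class II genes, had 15.3, 27.9 and 19.6 CPM at 3 months and 73.6, 113 and 228 CPM at 24 months (2.72 without and 1.58 with the offset). H2-Ab1, the matching beta chain, rose by 3.09 without and 1.42 with the offset, and H2-DMb2, of the peptide editor, by 2.82 and 2.12. Of 23 genes of MHC class I and peptide loading, 15 rose and 1 fell (65.2% and 4.35%). The shares were 20.9% and 18.6% for all genes and 45.9% and 9.69% for the quintile with the highest level. Tap1, the peptide transporter, rose from 47.7 ± 9.85 to 409 ± 225 CPM (3.10 without and 1.47 with the offset) and H2-K1, a class I heavy chain, by 2.23 and 0.73, while Pdia3, the disulfide isomerase of the loading complex, was the member that fell, with 487, 400.2 and 394 CPM at 3 months and 72.3, 63.8 and 34.4 CPM at 24 months (-2.91 without and -2.15 with the offset).

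Interferon-stimulated genes did not move as 1 group: of 36, 8 rose and 4 fell (22.2% and 11.1%, against 20.9% and 18.6% of all genes). Oas1a, a sensor of double-stranded RNA, had 6.62, 5.45 and 5.21 CPM at 3 months and 27.7, 65.8 and 29.2 CPM at 24 months (2.83 without and 2.497 with the offset). Oas3, of the same family, had 1.94, 2.55 and 1.89 CPM at 3 months and 15.9, 47.6 and 12.5 CPM at 24 months (3.57 without and 2.63 with the offset), and old mouse 2 was the highest in both. Ifitm3, which blocks viral entry at endosomes, rose from 205 ± 49.9 to 846 ± 295 CPM. Gbp3, a guanylate-binding protein, fell, with 32.5, 32.1 and 24.3 CPM at 3 months and 4.61, 3.20 and 0.586 CPM at 24 months. Isg15, a ubiquitin-like modifier, had 9.39, 6.42 and 7.84 CPM at 3 months and 9.38, 18.4 and 6.32 CPM at 24 months (log2 fold change 0.54 ± 0.32, adjusted p = 0.13). Of 23 complement genes 7 rose and 4 fell. C4b (chr17:34728380-34743882), a component of the classical pathway, had 255, 338 and 384 CPM at 3 months and 1499, 1730.1 and 4154 CPM at 24 months (log2 fold change 2.92 ± 0.34, adjusted p = 1.4e-06, 2.28 with the offset). C1qa, of the first component, rose from 38.3 ± 6.83 to 265 ± 66.4 CPM. Cfp, properdin of the alternative pathway, rose from 20.9 ± 1.47 to 111 ± 23.2 CPM. C3, the central component, had 694, 959 and 1035 CPM at 3 months and 1359, 1166 and 563 CPM at 24 months, with old mice on both sides of the young ones (log2 fold change 0.20 ± 0.29, adjusted p = 0.53).

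Among the lymphocyte lists, 17 of 22 plasma cell and immunoglobulin genes rose and 1 fell, beside B cells (9 of 21, none fallen) and T cells (9 of 24, none fallen). Pdcd1, the inhibitory receptor PD-1 of activated and exhausted T cells, had 0.165, 0.0880 and 0.421 CPM at 3 months and 1.56, 5.09 and 9.13 CPM at 24 months (log2 fold change 4.54 ± 0.68, adjusted p = 1.5e-05, 3.29 with the offset). Lck, the kinase next to the T cell receptor, had 10.8, 10.99 and 9.10 CPM at 3 months and 53.7, 92.0 and 128 CPM at 24 months (3.14 without and 1.75 with the offset). Cd6, a T cell coreceptor, rose from 2.83 ± 0.371 to 36.3 ± 17.9 CPM. Pdcd1 was near its detection limit in young lungs and above it in every old lung. Faim3, the receptor for the Fc part of IgM on B cells, rose from 11.3 ± 4.16 to 119 ± 108 CPM (3.38 without and 2.21 with the offset), Blk, a B cell kinase, by 2.80 and 1.49, and Spib, a B cell transcription factor, by 3.47 and 1.35. Cytotoxic genes went apart: Nkg7, a granule membrane protein, had 9.22, 7.17 and 6.73 CPM at 3 months and 36.96, 55.5 and 42.04 CPM at 24 months (2.54 without and 2.26 with the offset). Ncr1, the receptor NKp46 that marks NK cells, had 2.98, 3.56 and 2.37 CPM at 3 months and 0.247, 0.436 and 0 CPM at 24 months (-3.51 without and -1.87 with the offset). Of the 22 tested genes of NK and cytotoxic cells 9 rose and 4 fell. The summed level was 149 to 186 CPM at 3 months and 272 to 341 CPM at 24 months for the T cell list, 247 to 409 and 538 to 965 CPM for the B cell list and 1166 to 1263 and 4507 to 5347 CPM for the plasma cell list, none overlapping. These sums are without the offset and carry the GC trend. Blood remaining in the tissue can carry lymphocytes. Scaled to all gene reads, the erythroid list summed to 2795 to 4653 CPM at 3 months and 2684 to 3940.0 CPM at 24 months, with 4 of 15 risen and 3 fallen. With TMM factors its first gene, Hba-a1 of haemoglobin, had 1111, 592 and 785 CPM at 3 months and 2386, 2004 and 4586 CPM at 24 months (1.85 without and 0.48 with the offset). The part of blood in the lymphocyte changes was not tested.

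**Figure D4:**
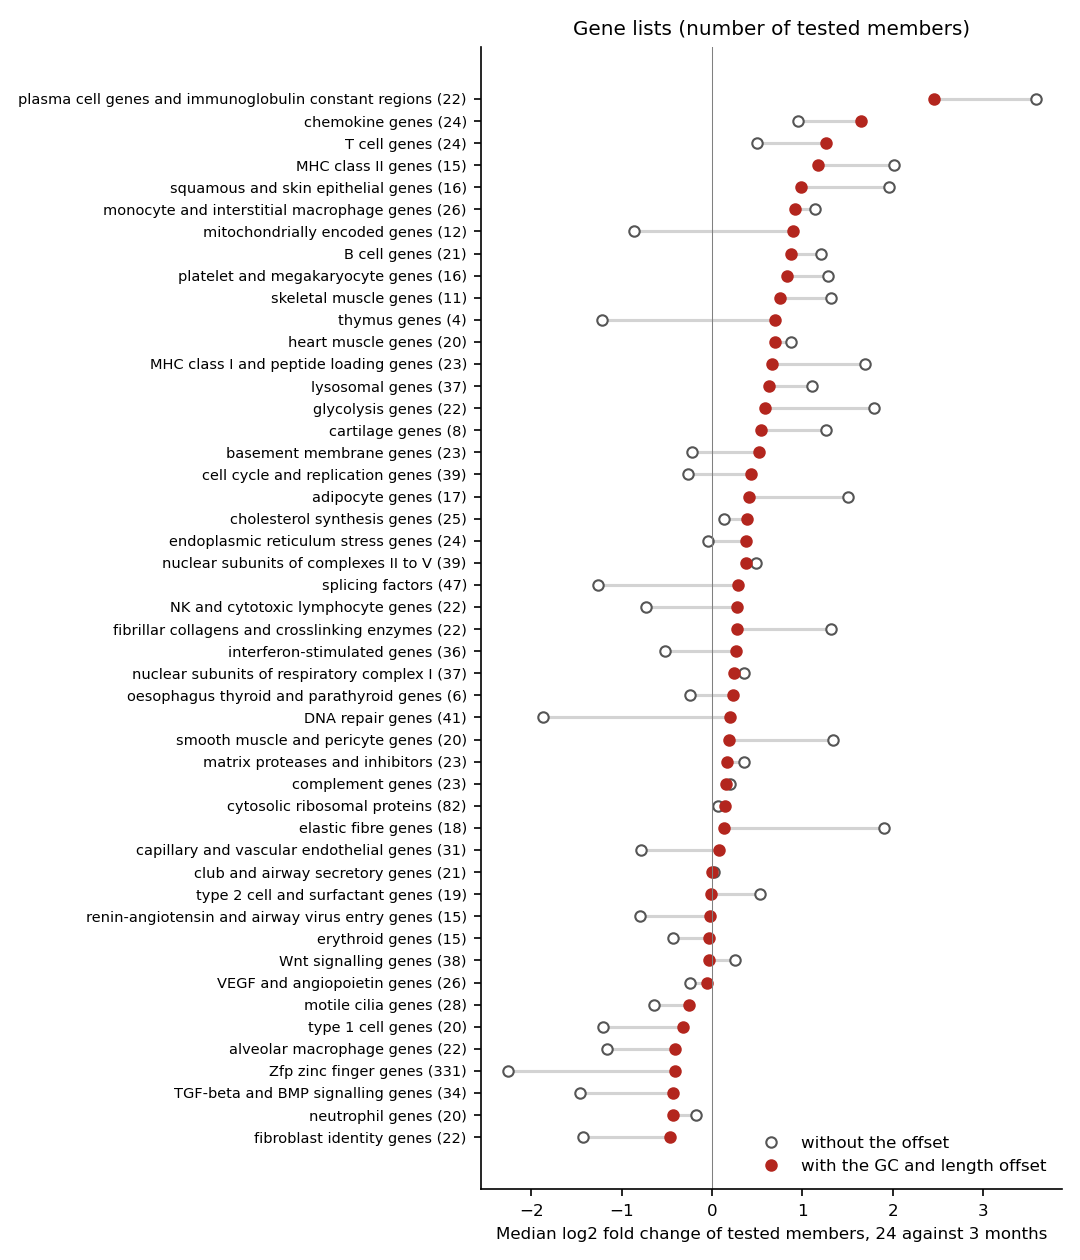
Median log2 fold change of the tested members of each gene list (horizontal axis, 24 against 3 months), without (open circles) and with (red circles) the GC and length offset, ordered by the latter, with the number of tested members in brackets. Plasma cell, chemokine and T cell lists end farthest to the right with the offset and fibroblast identity genes farthest to the left, at -0.47.

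Genes of energy metabolism are given in 3 groups. Of 39 nuclear genes for respiratory complexes II to V 14 rose (35.9%) and none fell, while 8 were called in opposite directions in the 2 fits. Complex I genes lay near the shares of all genes, with 9 of 37 risen and 6 fallen (24.3% and 16.2%, against 20.9% and 18.6%). Of them 7 were called in opposite directions. In the quintile of genes with the highest level 45.9% rose and 9.69% fell. Of all genes 9.13% were called in opposite directions. Of 12 mitochondrially encoded genes none was called the same way in both fits. Cox4i1, a subunit of cytochrome oxidase, had 166, 104 and 119 CPM at 3 months and 486, 509 and 1296 CPM at 24 months (log2 fold change 2.55 ± 0.33, adjusted p = 4.0e-06, 1.67 with the offset). Uqcrc1, a core protein of complex III, rose from 94.3 ± 12.2 to 720.2 ± 484 CPM, Atp5g1, of the ATP synthase ring, from 36.1 ± 5.07 to 155 ± 53.8 CPM, and Cox5a, also of cytochrome oxidase, from 20.5 ± 4.23 to 47.9 ± 4.59 CPM. Sdha, the succinate dehydrogenase flavoprotein, had -1.19 without but -0.03 ± 0.11, adjusted p = 0.81 with the offset, and -0.41 with the longest transcript. In complex I, Ndufs3 rose from 40.1 ± 6.81 to 119 ± 30.9 CPM and Ndufs1 fell from 48.7 ± 4.91 to 7.72 ± 0.990 CPM, both subunits of the peripheral arm. mt-Co1, the catalytic subunit of cytochrome oxidase, had 5589, 6304 and 6725 CPM at 3 months and 2528, 2309 and 3368 CPM at 24 months (log2 fold change -1.18 ± 0.23, adjusted p = 0.00018), but 0.88 ± 0.25, adjusted p = 0.0077 with the offset, and 0.39 with it and without 24-month mouse 3. Of the 12 mitochondrially encoded genes, whose median GC content is 37.4%, 8 were lower and none higher without the offset, and 10 were higher and none lower with it. The sign of the change of the mitochondrial transcripts thus differed between the fits.

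Of 22 glycolysis genes 14 rose and none fell (medians 1.80 without and 0.58 with the offset). That is 63.6% risen, against 20.9% of all genes and 45.9% of the quintile with the highest level. The median of that quintile was 0.40 with the offset. Pkm, pyruvate kinase, had 396, 329 and 363 CPM at 3 months and 1449.5, 1876 and 2885 CPM at 24 months (log2 fold change 2.51 ± 0.24, adjusted p = 2.9e-07, 1.31 with the offset). Eno1, enolase, had 170.0, 126 and 139.8 CPM at 3 months and 585, 760.2 and 1245 CPM at 24 months (2.57 without and 1.28 with the offset). Hk3, the hexokinase of myeloid cells, rose from 5.32 ± 0.441 to 38.3 ± 16.2 CPM (2.84 without and 1.38 with the offset). Hk1, the widespread hexokinase, had 1.93 without and 1.99 with the offset, but 0.21 with the longest transcript. Of 25 cholesterol synthesis genes 8 rose and 3 fell. Hmgcs1, the synthase of the early pathway, fell from 93.4 ± 3.38 to 7.37 ± 2.61 CPM (-3.65 without and -1.38 with the offset). Ebp, a sterol isomerase of the late pathway, rose from 36.6 ± 4.497 to 142 ± 44.5 CPM (1.96 without and 2.73 with the offset). Lysosomal genes rose more often than they fell, 17 and 3 of 37 (medians 1.11 without and 0.63 with the offset). These shares, 45.95% and 8.11%, lay near the 45.9% and 9.69% of the quintile of genes with the highest level. The part of level was not tested. Psap, the precursor of the saposins, had 1005, 825 and 859.7 CPM at 3 months and 3603, 4915 and 7195 CPM at 24 months (log2 fold change 2.55 ± 0.25, adjusted p = 2.7e-07, 1.36 with the offset). Man2b1, an alpha-mannosidase, had 108, 122 and 127 CPM at 3 months and 422, 623 and 789 CPM at 24 months (2.36 without and 2.66 with the offset). Atp6v1a, a subunit of the proton pump that acidifies lysosomes, fell from 141 ± 14.73 to 13.7 ± 4.38 CPM. Ctsb, the protease cathepsin B, had 0.57 without the offset, a call lost without any 1 mouse but 24-month mouse 3 (adjusted p up to 0.28), and 0.30 with the offset.

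Of 82 ribosomal protein genes 20 rose and 9 fell (24.4% and 10.98%, against 20.9% and 18.6% of all genes). In the quintile of genes with the highest level the shares were 45.9% and 9.69%. Many ribosomal protein genes are short, with near-identical pseudogenes that may share reads. Rplp2, of the stalk, had 246, 160.4 and 196 CPM at 3 months and 897, 959 and 2885 CPM at 24 months (2.98 without and 2.57 with the offset). Rpl28 rose by 2.56 without and 1.76 with the offset. Rps20 had log2 fold change -0.26 ± 0.21, adjusted p = 0.27, and 1.46 ± 0.25, adjusted p = 0.00022 with the offset. Of 47 splicing factors 9 rose and 8 fell, and 9 were called in opposite directions in the 2 fits. Srsf11 had 152, 159 and 165 CPM at 3 months and 13.7, 12.9 and 7.14 CPM at 24 months (-3.81 without and -2.25 with the offset) and Rbm39, a U2AF-related factor, 286, 269 and 299.8 CPM at 3 months and 32.2, 22.4 and 22.95 CPM at 24 months (-3.46 without and -1.28 with the offset), low in every old mouse. Srsf9 and Sf3a1, of the U2 particle, rose from 36.8 ± 5.99 to 140.1 ± 36.7 CPM (2.03 with the offset) and from 53.1 ± 3.66 to 190.4 ± 43.6 CPM (2.09). Srsf1, which defines exons, had -2.94 without and -0.72 with the offset, and 0.11 with the longest transcript. In the endoplasmic reticulum, 8 rose and 2 fell of 24 stress genes: Hspa5, the chaperone BiP, had 549, 455 and 501 CPM at 3 months and 115, 91.5 and 51.5 CPM at 24 months (-2.54 without and -1.24 with the offset), whereas its exchange factor Hyou1 had 115, 126 and 134 CPM at 3 months and 438, 497 and 557 CPM at 24 months (1.99 without and 1.54 with the offset). Manf, a secreted factor of this response, rose by 1.29 and 2.30, and Calr, calreticulin, by 1.41 and 1.56.

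Of 41 DNA repair genes 28 were lower and 9 higher without the offset, and 7 lower and 12 higher with it. In both fits 7 fell and 5 rose (17.1% and 12.2%, against 18.6% and 20.9% of all genes). Msh6, a mismatch recognition protein, had 21.5, 24.8 and 25.1 CPM at 3 months and 5.10, 4.44 and 4.10 CPM at 24 months (-2.38 without and -1.93 with the offset). Atm, the kinase that answers double-strand breaks, had 5.71, 11.6 and 10.3 CPM at 3 months and 0, 0.364 and 0.117 CPM at 24 months, with no read in old mouse 1 (-5.68 without and -2.82 with the offset, and -4.50 with the offset without 24-month mouse 2). Ddb1, of the complex that recognises ultraviolet damage, rose, with 298, 336 and 357 CPM at 3 months and 966, 1201 and 1248 CPM at 24 months (1.79 without and 2.94 with the offset). Of 39 cell cycle and replication genes 8 rose and 1 fell. Mcm5, of the replicative helicase, had 14.68, 13.5 and 12.5 CPM at 3 months and 40.7, 65.7 and 184 CPM at 24 months (2.83 without and 2.05 with the offset, and 1.22 with the offset without 24-month mouse 3). Mki67, the proliferation marker Ki-67, had -2.37 without but 0.13 ± 0.31, adjusted p = 0.75 with the offset. Zinc finger genes named Zfp, most of them repressors that bind DNA, were the family with the most tested members, and 116 of 331 fell while 29 rose, 35.05% and 8.76% against 18.6% and 20.9% of all genes (medians -2.26 without and -0.41 with the offset). Zfp397 had 23.7, 33.2 and 38.6 CPM at 3 months and 2.55, 2.84 and 1.99 CPM at 24 months (-3.67 without and -3.19 with the offset), lower in every old mouse, as was Zfp366 above. Family members share sequence and GC content, so their changes are not independent.

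In signalling, TGF-beta and BMP genes fell more often than they rose, 12 and 2 of 34 (medians -1.46 without and -0.43 with the offset). The summed level of the list was nevertheless higher at 24 months, 4202 to 4352 CPM against 3474 to 3839 CPM at 3 months. Tgfb1 (chr7:25687002-25705077), the TGF-beta1 ligand, had 82.7, 74.1 and 65.9 CPM at 3 months and 396, 521 and 1741 CPM at 24 months (log2 fold change 3.58 ± 0.45, adjusted p = 2.7e-06, 2.28 with the offset), with old mouse 3 far above the others. Tgfbr3, the coreceptor betaglycan, had 107, 138 and 140.2 CPM at 3 months and 15.8, 12.9 and 15.7 CPM at 24 months (-3.12 without and -2.14 with the offset). Smad4, the shared SMAD that carries the signal into the nucleus, had 58.2, 69.4 and 73.6 CPM at 3 months and 23.1, 19.8 and 22.1 CPM at 24 months (-1.63 without and -2.12 with the offset). Both were lower in every old mouse. The other member that rose was Smad3, a SMAD that the TGF-beta receptor activates (1.22 without and 0.40 with the offset), a call with the offset that was lost without any 1 mouse but 24-month mouse 3 (adjusted p up to 0.23). Of 38 Wnt genes 9 rose and 11 fell. Wnt7a, a ligand, rose from 14.71 ± 1.30 to 65.6 ± 20.8 CPM (2.15 without and 2.05 with the offset), Fzd4, a receptor, fell from 79.8 ± 40.02 to 6.44 ± 1.40 CPM (-3.62 without and -1.55 with the offset). Ctnnb1, the effector beta-catenin, had 750.0, 758 and 807 CPM at 3 months and 229.8, 206 and 181 CPM at 24 months (-1.91 without and -1.77 with the offset). In the renin-angiotensin system, Ace, the angiotensin-converting enzyme of lung capillaries, had 875, 1107 and 1065 CPM at 3 months and 3471, 3894 and 5472 CPM at 24 months (2.07 without and 1.28 with the offset). Enpep, which degrades angiotensin II, fell from 166 ± 12.8 to 11.4 ± 4.95 CPM (-3.84 without and -1.56 with the offset). Of 15 tested genes of that list 4 rose and 2 fell.

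Some genes were high in 1 old mouse alone. In 13 genes the highest 24-month mouse had at least 10 times the CPM of the next and at least 5 CPM, and 11 of them were highest in mouse 3 and 2, both immunoglobulin V segments, in mouse 1. Krt4, a keratin of stratified oesophageal epithelium, had 0.247, 0.872 and 506 CPM in the 24-month mice, Lor, of the cornified envelope, had 0.741, 0.727 and 186 CPM. Krt5, of basal cells, had 3.21, 10.03 and 109 CPM. Acta1, skeletal muscle actin, had 0.576, 0.800 and 196 CPM in the same mice. Mouse 3 thus stood apart in squamous and in muscle genes, and H19 and Ighg3 belong to the same group. Without mouse 3 the changes were 1.40 for Krt4 (adjusted p = 0.11), 0.93 for Lor (adjusted p = 0.11), 2.15 for Krt5 (adjusted p = 0.014) and -0.12 for Acta1 (adjusted p = 0.87), against 9.59, 7.32, 4.75 and 6.42 with all mice. The summed level of 24 squamous genes was 205 to 259 CPM at 3 months and 152 to 853 CPM at 24 months, and that of 16 skeletal muscle genes 57.1 to 93.6 and 95.5 to 319 CPM, none of them at 0 in all 6 mice. Of the squamous genes 3 of 16 tested rose and none fell, and of the skeletal muscle genes 4 of 11 rose and none fell. Heart muscle genes, present in lung through the muscle sleeves of pulmonary veins, summed to 488 to 848 CPM at 3 months and 616 to 1076 CPM at 24 months, with overlap (5 rose and 1 fell of 20). Adipocyte genes summed to 2027 to 2091 and 936 to 1162 CPM (4 rose and 1 fell of 17), and cartilage genes to 43.1 to 52.9 and 96.9 to 164 CPM (1 of 8 tested rose). Thymus genes, which would carry T cell genes with them, summed to 21.1 to 24.9 and 8.60 to 18.4 CPM with Ptcra and Psmb11 at 0 in all 6 mice, and genes of oesophageal glands, thyroid and parathyroid to 13.5 to 15.1 and 6.28 to 12.02 CPM with Pax8 at 0. The part of neighbouring tissue in the changes of Des, Acta2, H19 and Atp2a1 was not tested.

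**Figure D5:**
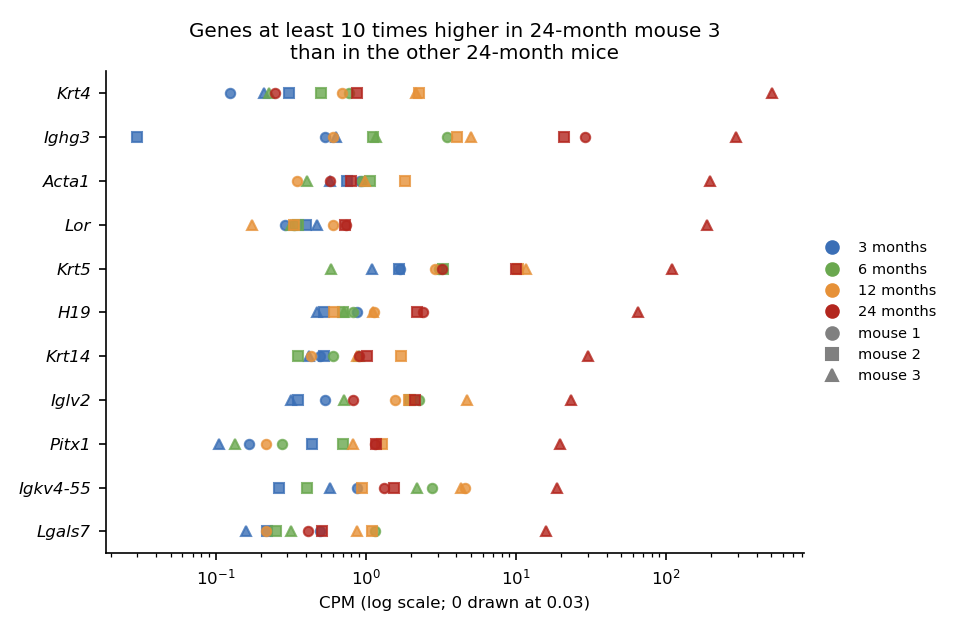
CPM per mouse (horizontal axis, log scale, 0 drawn at 0.03) of the 11 genes whose level in 24-month mouse 3 was at least 10 times that of the other 24-month mice. Colour gives the age and shape the mouse number, and the red triangle of mouse 3 stands alone in each gene, at 506 CPM for Krt4.

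The levels at 6 and 12 months, which share the 3-month mice as reference, mostly lay between the extremes. All 15 genes with the largest falls, and 14 of the 15 with the largest rises, had a 12-month mean between their 3-month and 24-month means, the exception being Igj with 129 ± 54.3 CPM at 12 months and 113 ± 40.3 CPM at 24 months. For all genes called in both fits the share was 87.5% of those that rose and 85.5% of those that fell. Among all tested genes it was 69.4%. The called genes, and the 15 named each way, were selected by their change between 3 and 24 months. A wider gap between these ages holds a 12-month mean more often through this selection alone. The higher shares therefore cannot decide whether levels moved gradually with age, which was not tested. Igha had 25.6 ± 6.17, 44.7 ± 10.5, 99.9 ± 39.6 and 441 ± 181 CPM at 3, 6, 12 and 24 months (mean ± SD, n = 3 each). Cd3e had 4.66 ± 0.547, 5.71 ± 1.02, 7.81 ± 1.92 and 47.6 ± 22.01 CPM, and Vwf 574 ± 114, 764 ± 179, 835 ± 54.9 and 5841 ± 2899.9 CPM, so that in these genes most of the difference lay between 12 and 24 months. Igha had moved by 12 months. Plagl1 had 35.6 ± 1.74, 32.2 ± 5.48, 11.8 ± 1.78 and 3.01 ± 1.04 CPM and Vegfa 985 ± 28.99, 904 ± 101, 467 ± 152 and 313 ± 65.9 CPM, already lower at 12 months. Cav1 had 1150.4 ± 54.8, 1111 ± 65.8, 952 ± 379 and 153 ± 54.0 CPM. Its 12-month mice were uneven, with 797, 675 and 1384 CPM, so that mice 1 and 2 lay below and mouse 3 above every young mouse. These levels are without the offset, and the 12-month mice carried part of the GC trend, mice 1 and 2 at both of its ends and mouse 3 at the upper end.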

How the data were processed

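Poly(A) RNA libraries of whole lung from male wild-type C57Bl/6J mice were compared, 3 of 24 months against 3 of 3 months. The submitters' processing notes name TopHat, STAR 2.5, HTSeq 0.6.1 and build mm10 without roles. The sources used here do not state the gene annotation, the use of strand or the treatment of reads shared by paralogs. Read counts per gene and library were deposited by the authors, and only these were tested. FPKM values, mean signal per age, log2 fold changes and p-values that the authors deposited in the same table were not used, except that the authors' deposited gene lengths entered the offset.

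Genes were filtered with filterByExpr over the 4 ages, which left 16042 of 35275, and scaled with TMM. The quasi-likelihood F test of edgeR 4.0.16 (limma 3.58.1, R 4.3.3) with robust dispersions was fitted to all 12 libraries, so that the ages share the estimate of spread, and the contrast was 24 minus 3 months. P values were adjusted by Benjamini-Hochberg over all tested genes, with calls at 0.05. CPM of single genes use TMM library sizes, and summed levels of lists use all gene reads of a library without TMM. Neither carries the offset. The offset removes from each library a smooth on GC content and log2 gene length (mgcv 1.9.3, basis dimension 60, prior count 1), fitted to the deviation of log2 CPM from the mean of all libraries. GC content is the mean over the GENCODE M21 transcripts of a gene ID and was found for 15949 tested genes, the others taking the mean offset of the library. SE is the absolute log2 fold change divided by the square root of F. Library measures were compared with an exact two-sided permutation test. The fitting steps were tested on simulated data with the same GC trend in every 24-month library and no length trend. That test does not cover trends that differ between mice or follow gene length. Alternatives were RLE size factors, DESeq2 1.42.0, limma voom, other filters, a replicate block, only the 6 mice, each mouse left out, and an offset on GC content alone or on GC content of the longest transcript, the last added after the data were seen.

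The comparison, the gene lists (64 written lists and 6 families taken by symbol) and the alternatives were chosen with earlier results of these data known. Named genes are the 15 with the largest changes each way, ranked by the smaller of the 2 absolute log2 fold changes among genes called in both fits, without overlap between ages and with a mean of at least 5 CPM in the higher age. In each list described they are its first gene and up to 4 members ranked in the same way. Members whose call was lost with the longest-transcript offset, or rested on 1 mouse, were passed over in the lists. Etv5, Bpifa1, Macf1, Col4a3, Cd68, Chil3, C1qa, Ccl8, Ifitm3, Eno1, Psap, Zfp397, Smad4, Fzd4, Lox and Spib came in as lower-ranked members, and Krt5, Lyz2, Col18a1 and Smad3 lie outside these rules. These genes were chosen after their values were seen. V segments, numbered models, clones of the Riken set and pseudogenes were left out of the first group. The 2 genes with the lowest and the 2 with the highest GC content over 50 CPM, and genes high in 1 old mouse, were named too. A gene is said to have risen or fallen where both fits called it. Lists are described by counts beside those of all genes, with no test of a list. Levels of members are compared between ages only. Some genes that the rules name are not reported here. Coordinates are mm10 positions from GENCODE M21.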

Additional observations from a re-analysis of the deposited data

How the results depend on the processing

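Without an offset the number of called genes moved little: RLE size factors, DESeq2, limma voom, no filter on low counts, a mean CPM of at least 1 and a fit of only the 6 mice gave 12411 to 13730 genes, and leaving out each mouse in turn 12701 to 13153. The offset mainly lowered the count of lower calls, from 7149 to 4135, with 4478 for GC content alone, 4276 with the longest transcript (added after the data were seen), 3683 with only the 6 mice and 3674 to 3981 with 1 mouse left out. All calls with the offset came to 8339 with only the 6 mice. With 1 mouse left out, over fits without and with the offset, all calls ranged from 8162 to 13153 and lower calls from 3674 to 7410. Mouse numbers did not pair the mice (r of same-numbered mice -0.13 to 0.11, of others -0.17 to 0.13). With the replicate number as a block 13130 genes were called, and with the block and the offset 9119, of which 4045 lower. The block ended the call of Acta1 (4.78, adjusted p = 0.090) and, with the offset, those of Cebpb (-0.39), Smad3 (0.38) and Krt4 (6.53), and changed no other call among the named genes. Among the named genes 8 had the opposite sign in 5 offset fits: in the order GC and length, GC alone, longest transcript, block with GC and length, only the 6 mice, and the range with 1 mouse left out, without or with the offset, the log2 values were Ager -0.15, -0.12, -0.22, -0.17, -0.15 and -0.29 to 1.81; Cebpb -0.39, -0.24, -0.28, -0.39, -0.37 and -0.48 to 2.26; Marco -0.30, -0.13, -0.034, -0.30, -0.30 and -0.53 to 1.59. For the others they were Rps20 1.46, 1.21, 2.61, 1.42, 1.45 and -0.59 to 1.67; Sftpc -0.17, -0.43, -0.22, -0.16, -0.17 and -0.25 to 0.63; mt-Co1 0.88, 1.62, 0.84, 0.84, 0.87 and -1.47 to 1.12. The last had mt-Nd4 0.90, 1.31, 0.67, 0.90, 0.85 and -1.32 to 0.99; mt-Nd6 2.22, 2.24, 1.85, 2.17, 2.14 and -0.40 to 2.57. Some alternatives turned the sign of Acta1 (-1.49 to 7.01 with 1 mouse left out), Col1a1 (-0.52 with the longest-transcript offset), Col4a1 (-0.51 with the longest-transcript offset), Eln (-0.30 with the longest-transcript offset, -0.13 to 2.03 with 1 mouse left out), Lor (-0.99 to 7.90 with 1 mouse left out), Lyz2 (0.38 with the GC offset), Mki67 (0.13 with the GC and length offset, 0.16 with the longest-transcript offset, 0.14 with the block and offset, 0.12 with the offset and only the 6 mice, -2.95 to 0.41 with 1 mouse left out), Pecam1 (-1.09 to 0.17 with 1 mouse left out), S100a8 (1.83 with the GC offset), Scgb1a1 (-0.96 to 0.39 with 1 mouse left out), Sdha (0.046 with the GC offset, -1.43 to 0.017 with 1 mouse left out) and Srsf1 (0.11 with the longest-transcript offset). The cause was not tested. Values of Hba-a1 under the alternatives are not given here, and it is not counted among the named genes. Of 166 named genes, RLE size factors kept the direction and the side of the threshold for 166, limma voom for 163 (not for Krt4, Lor and Acta1), and the offset for 147. Only the 6 mice ended the calls of Sftpc and Ctsb. Over the 48 gene lists described, the offset moved the median of 38 by more than the SD of the 3 old mice. With 3 mice per age the smallest exact permutation p is 0.1. Scaled to all gene reads, 3 reads correspond to 0.144 to 0.204 CPM in these 6 libraries. With TMM the 3 reads of Zfp366 in 24-month mouse 3 gave 0.351 CPM, so genes near these levels rest on few reads.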
